A study of Mus musculus with 12 samples.

Results

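The genes described here are 9 listed for hair cells of the cochlea. All but Acbd7 serve transmitter release, ion currents, electromotility or calcium buffering. The 9 are Otof, Slc17a8, Cacna1d, Cabp2, Kcnma1, Slc26a5, Ocm, Pvalb and Acbd7. They were taken by symbol from a table of 23598 rows. A row of its own was found for 8 of the 9, and all 8 were tested. Slc17a8, the vesicular glutamate transporter of inner hair cells, was found only in a row merged with its neighbour Scyl2, so it has no value of its own. Each sample is RNA from a pool of at least 6 mouse cochleae, of which the apical and middle turns were used, taken at postnatal day 7. There were 4 groups of 3 samples each: Control, b-catenin-OE (overexpression of β-catenin, the transcriptional effector of Wnt signalling), Notch1-KO (knockout of the receptor Notch1), and a group labelled with both changes, called the double group below. By its design text the series is about reprogramming Wnt and Notch in vivo so that supporting cells divide and give rise to hair cells. The sources used here do not give the Cre driver, the alleles, the time of induction, the strain or the genotype of the Control animals.

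Hair cells turn sound into transmitter release. Calcium enters an inner hair cell through the channel Cav1.3, whose pore is made by Cacna1d and whose inactivation is slowed by the calcium-binding protein Cabp2, and it triggers vesicle fusion at the ribbon synapse through otoferlin, the product of Otof. Outer hair cells amplify sound with the membrane motor prestin, made by Slc26a5, and hold much of the calcium buffer oncomodulin, made by Ocm. Large-conductance potassium channels made by Kcnma1 and the buffer parvalbumin, made by Pvalb, appear as hair cells mature, and Pvalb is also expressed by spiral ganglion neurons.

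Expression is given as FPKM, fragments scaled to the length of the transcript and to the mapped fragments of the library. Fold changes are log2 values of FPKM + 0.5 with their standard error, n = 3 samples per group, and adjusted p-values are those of limma with Benjamini-Hochberg adjustment over 14581 tested rows and a threshold of 0.05. Samples numbered 2 and 3 of a group were much closer to each other than to the sample numbered 1. Over 5889 well-expressed genes, log2 values of samples 2 and 3 differed with a robust SD of 0.0756 to 0.133, and those of sample 1 differed from them with one of 0.293 to 0.446. Separate animals are not stated for the samples of a group, so a p-value speaks only of the spread among the deposited samples, and that spread may be technical. Depth by the steps of low values was 18300000 to 26620000 fragments in the samples numbered 2 and 3, and it is unknown in those numbered 1. Notch1, the targeted gene, had 24.3, 14.7 and 16.6 FPKM in the Control samples, 37.6, 15.7 and 16.7 in the b-catenin-OE samples, 9.16, 7.63 and 7.56 in the Notch1-KO samples and 8.62, 5.70 and 5.77 in the double samples. Every sample labelled Notch1-KO or double lay below every sample of the other groups. The log2 fold change of Notch1 against Control was -1.11 ± 0.30 in Notch1-KO (limma adjusted p = 0.160, and 0.0156 with the sample number as a block) and -1.39 ± 0.30 in the double group (limma adjusted p = 0.0113, and 0.156 with samples 2 and 3 averaged or 0.0501 without double sample 2). Without b-catenin-OE sample 1 the Notch1 change in Notch1-KO passed too (0.0245). Ctnnb1, which encodes β-catenin, averaged 392 ± 37.5 FPKM (SD, n = 3) in Control and 398 ± 22.5 where β-catenin alone was overexpressed. Its mean was 379.95 ± 4.93 where Notch1 alone was knocked out and 454 ± 40.4 with both changes. These values do not check the overexpression label. The alleles are not given, so whether the overexpression would raise this row is not known. Hair cell genes were detected in this tissue: of the 10 hair cell identity genes with a row, 0 had a mean under 0.5 FPKM.

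Otof and Acbd7 rose in Notch1-KO and were lower in the double group than in Notch1-KO. Both were close to 2 times their Control level in Notch1-KO and overlapped the Control samples in the double group. Ocm had its highest mean in Control, and Cacna1d, Cabp2 and Slc26a5 lay above Control in every Notch1-KO sample without passing the test. Kcnma1 and Pvalb had widely separated samples within Control. The levels of the 8 genes in the 12 samples are plotted next.

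**Figure D1:**
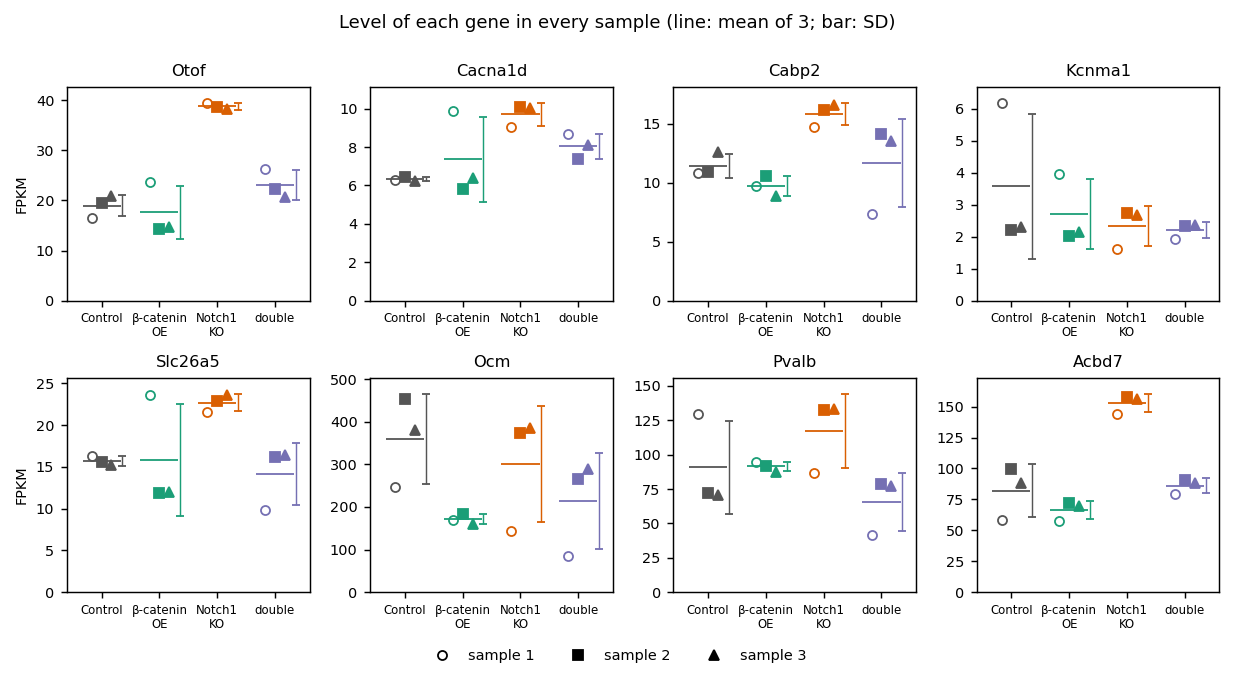
FPKM (vertical axis, linear, from 0) of the 8 genes with a row of their own, by group. Open circles are samples numbered 1, squares samples 2 and triangles samples 3, the line is the mean and the bar the SD of 3 samples. Otof in Notch1-KO stands at 38.2 to 39.5 FPKM, above all samples of the other groups, while Ocm in sample 1 of the Notch1-KO and double groups stands well below samples 2 and 3.

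Promoters are shown for Acbd7, which passed the test, and for Slc26a5 and Ocm, 2 outer hair cell genes that did not. Otof, which also passed, has no promoter entry in the reference used, so its promoter was not searched. Each line holds the 250 bases before the RefSeq transcription start (GRCm38.p6), on the gene's strand, 5′ to 3′. Capitals mark CANNTG (an E-box, the letters read by basic helix-loop-helix factors such as Atoh1) and CCAAT, found on either strand.
Acbd7: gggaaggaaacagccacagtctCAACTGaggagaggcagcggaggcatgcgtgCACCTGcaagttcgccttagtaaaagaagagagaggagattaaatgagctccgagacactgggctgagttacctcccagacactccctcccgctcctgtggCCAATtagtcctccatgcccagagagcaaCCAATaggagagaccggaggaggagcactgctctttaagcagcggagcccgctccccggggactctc
Slc26a5: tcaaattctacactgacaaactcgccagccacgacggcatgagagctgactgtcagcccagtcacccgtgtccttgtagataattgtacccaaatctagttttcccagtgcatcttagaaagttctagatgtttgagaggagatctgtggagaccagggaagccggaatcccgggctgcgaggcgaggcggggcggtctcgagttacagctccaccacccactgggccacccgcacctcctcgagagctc
Ocm: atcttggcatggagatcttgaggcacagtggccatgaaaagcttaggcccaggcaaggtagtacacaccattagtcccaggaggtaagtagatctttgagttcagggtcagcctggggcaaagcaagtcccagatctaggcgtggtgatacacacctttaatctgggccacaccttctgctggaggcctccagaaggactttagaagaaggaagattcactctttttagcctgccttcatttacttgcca
The Acbd7 window lies at chr2:3335918-3336167 on the plus strand, the Slc26a5 window at chr5:21865605-21865854 on the minus strand and the Ocm window at chr5:144050610-144050859 on the minus strand. Acbd7 held 2 E-boxes, which begin 228 and 197 bases before the start, and 2 CCAAT motifs, which begin 96 and 67 bases before it. The Slc26a5 and Ocm windows held neither motif. In the GENCODE M21 annotation Ocm spans chr5:144019804-144026670 on the minus strand, so the start given there lies away from this window and was not searched. The 8 listed genes with a promoter entry, which include Slc17a8 and not Otof, have 12 windows. An E-box stood in 6 of the 12 windows and CCAAT in 3, while 66.2% and 33.9% of all 32851 promoter windows of this length hold them. The E-boxes belonged to 5 genes, Acbd7, Slc17a8, Cacna1d, Cabp2 and Pvalb, and CCAAT to Acbd7, Cacna1d and Cabp2. Genes that did not pass the test thus held both motifs too. The E-box and CCAAT are short and common, so a match describes the letters and no more. The RBPJ motif GTGGGAA, through which Notch signals act, and the TCF/LEF motifs CTTTGAT and CTTTGAA, through which β-catenin acts, were in 0 of the 12 windows of these genes on either strand, and 5.42%, 3.21% and 4.46% of all windows hold them.

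Otof (chromosome 5, 30367026 to 30462177, mm10) encodes the calcium sensor of vesicle fusion in hair cells. Its FPKM was 16.6, 19.5 and 20.8 in the Control samples, 23.7, 14.3 and 14.8 in the b-catenin-OE samples, 39.5, 38.6 and 38.2 in the Notch1-KO samples and 26.3, 22.3 and 20.6 in the double samples. Notch1-KO lay above the other groups without overlap and varied least, with an SD of 0.657 FPKM against 2.17 in Control. Otof rose in Notch1-KO against Control by a log2 fold change of 1.02 ± 0.18 (limma adjusted p = 0.0234), higher in 3 of 3 samples. It was lower in the double group than in Notch1-KO by a log2 fold change of -0.74 ± 0.18 (limma adjusted p = 0.0192), again with no overlap. The double group overlapped Control at its lowest sample, and b-catenin-OE spanned Control on both sides. Against b-catenin-OE the double group was at a log2 difference of 0.41 ± 0.18, which did not pass (limma adjusted p = 0.242). In bulk tissue fewer cells of a type and less RNA per cell cannot be told apart, and the same holds for more cells and more RNA per cell.

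The Otof call in Notch1-KO against Control was lost with any 1 Control or Notch1-KO sample left out (limma adjusted p from 0.0566 to 0.106), with only these groups fitted (0.0532) and with no filter on low values (0.0669). With samples 2 and 3 averaged into 1 value it was far from the threshold (limma adjusted p = 0.625), although the log2 fold change was 1.07. The sample numbered 1 alone gave a log2 difference of 1.23 and samples 2 and 3 gave 0.91.

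Cacna1d (chromosome 14, 29978221 to 30527056), the pore of Cav1.3, was one of the lowest of the 8. Its FPKM was 6.28, 6.43 and 6.23 in the Control samples, 9.89, 5.84 and 6.37 in the b-catenin-OE samples, 9.02, 10.1 and 10.02 in the Notch1-KO samples and 8.65, 7.36 and 8.08 in the double samples. All samples of Notch1-KO and of the double group lay above all Control samples, as did only sample 1 of b-catenin-OE in its group. The log2 fold change was 0.58 ± 0.17 in Notch1-KO (limma adjusted p = 0.185) and 0.32 ± 0.17 in the double group (limma adjusted p = 0.250). Neither passed the test, but both did without b-catenin-OE sample 1 (limma adjusted p = 0.0199 and 0.0483). Cacna1d shares 589 annotated exon bases with Chdh on the opposite strand, 4.67% of its exon bases, and strand use in counting is not given.

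Cabp2 (chromosome 19, 4081453 to 4087339), the modulator of Cav1.3, had 10.8, 10.9 and 12.6 FPKM in the Control samples and 9.70, 10.6 and 8.87 in the b-catenin-OE samples. It had 14.7, 16.2 and 16.6 FPKM in the Notch1-KO samples and 7.37, 14.1 and 13.5 in the double samples. The b-catenin-OE samples lay below and the Notch1-KO samples above all Control samples, and the double group held both the lowest sample of all and 2 samples above Control. Notch1-KO differed from Control by a log2 fold change of 0.45 ± 0.20 (limma adjusted p = 0.584), and the double group from Notch1-KO by -0.48 ± 0.20 (limma adjusted p = 0.183).

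The merged row of Scyl2 and Slc17a8 (chromosome 10, 89574019 to 89686296) held 17.9, 26.6 and 23.4 FPKM in the Control samples, 22.2, 21.1 and 21.3 in the b-catenin-OE samples, 24.8, 26.9 and 26.7 in the Notch1-KO samples and 17.9, 22.5 and 25.2 in the double samples. The groups overlapped except Notch1-KO and b-catenin-OE, which are not compared here. Scyl2 is expressed widely, so these values say nothing of Slc17a8 alone.

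Kcnma1 (chromosome 14, 23292320 to 24005097), the pore of the large-conductance potassium channel, was the lowest of the 8 in group mean. Its FPKM was 6.20, 2.22 and 2.32 in the Control samples, 3.96, 2.03 and 2.15 in the b-catenin-OE samples, 1.62, 2.73 and 2.68 in the Notch1-KO samples and 1.92, 2.35 and 2.37 in the double samples. Sample 1 was the highest in Control and b-catenin-OE and the lowest in Notch1-KO and the double group, and all groups overlapped. In the samples numbered 2 and 3 Kcnma1 stayed between 2.03 and 2.73 FPKM. Sample 1 of Control was also the highest of the 12 for summed markers of spiral ganglion neurons, at 462 FPKM against 154 and 159 in Control samples 2 and 3. The same sample was highest for Schwann and satellite glia, at 3456 against 1078 and 1085, and for smooth muscle and pericytes, at 94.8 against 55.9 and 54.6. It was highest also for bone and cartilage, at 2520 against 986 and 1111, and b-catenin-OE sample 1 was next in that list, at 1914. Their part in the Kcnma1 value was not tested. Kcnma1 shares 1016 exon bases, 5.99%, with 4930519K11Rik on the opposite strand.

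**Figure D2:**
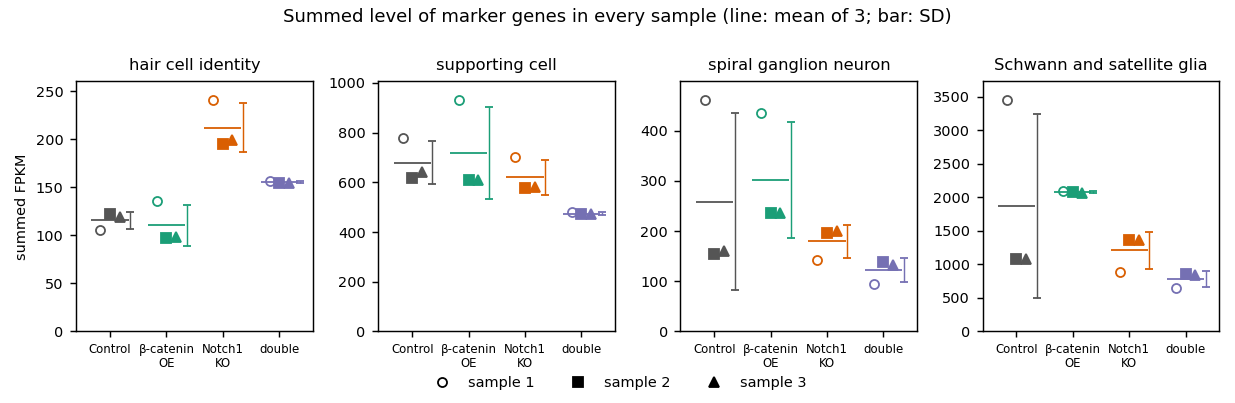
Summed FPKM of marker genes (vertical axes, linear, from 0) of hair cells (10 genes), supporting cells (11), spiral ganglion neurons (18) and Schwann and satellite glia (10), by group, with symbols as in the plot of levels. Hair cell identity genes sum to 105 to 122 in Control and 196 to 241 in Notch1-KO, while neuron and glial sums are highest in sample 1 of Control, at 462 and 3456.

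Slc26a5 (chromosome 5, 21805640 to 21865699), the outer hair cell motor whose promoter is printed above, had 16.3, 15.6 and 15.2 FPKM in the Control samples, 23.5, 11.9 and 11.96 in the b-catenin-OE samples, 21.6, 22.9 and 23.6 in the Notch1-KO samples and 9.87, 16.2 and 16.4 in the double samples. Notch1-KO lay above Control and above the double group without overlap. In b-catenin-OE sample 1 was about as high as Notch1-KO and samples 2 and 3 were below Control. The log2 fold change was 0.52 ± 0.25 in Notch1-KO against Control (limma adjusted p = 0.636) and -0.70 ± 0.25 in the double group against Notch1-KO (limma adjusted p = 0.108), and neither passed. The latter passed without b-catenin-OE sample 1 (limma adjusted p = 0.0179).

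Ocm (chromosome 5, 144019805 to 144050609), the outer hair cell calcium buffer, was the highest of the 8 in every group mean. Its FPKM was 246, 453 and 381 in the Control samples, 169, 184 and 160 in the b-catenin-OE samples, 144, 373 and 386 in the Notch1-KO samples and 84.0, 266 and 289 in the double samples. All b-catenin-OE samples lay below all Control samples, while Notch1-KO and the double group overlapped Control. The lowest sample of Control, Notch1-KO and the double group was in each case the sample numbered 1. The log2 fold change of b-catenin-OE against Control was -1.03 ± 0.47, lower in 3 of 3 samples (limma adjusted p = 0.365), and that of the double group was -0.90 ± 0.47 (limma adjusted p = 0.257). Neither passed. With samples 2 and 3 alone the b-catenin-OE difference in Ocm was -1.27 and passed (limma adjusted p = 1.07e-05), and in the samples numbered 1 it was -0.54.

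Pvalb (chromosome 15, 78191118 to 78206351), the other calcium buffer of the parvalbumin family, had 129, 72.0 and 70.7 FPKM in the Control samples, 94.9, 91.6 and 87.7 in the b-catenin-OE samples, 86.4, 132 and 133 in the Notch1-KO samples and 41.6, 78.6 and 77.0 in the double samples. The double group lay below b-catenin-OE and below Notch1-KO without overlap, and other groups overlapped. The log2 fold change of the double group was -0.86 ± 0.28 against Notch1-KO (limma adjusted p = 0.0828) and -0.53 ± 0.28 against b-catenin-OE (limma adjusted p = 0.351). The former passed without Control sample 1 (limma adjusted p = 0.0364). The summed neuron markers were also lower in the double group, at 94.4, 138 and 133 FPKM, than in any Notch1-KO sample (142 to 201) or b-catenin-OE sample (235 to 435). The glial sum was lower there too, at 645 to 857 FPKM against 892 to 1367 in Notch1-KO and 2072 to 2090 in b-catenin-OE. Sample 1 of Control, the highest of its group for Pvalb, was also highest for the summed neuron markers given above, and the part of these markers in the Pvalb values was not tested. Against Control, Notch1-KO was lower by sample 1 (log2 difference -0.58) and higher by samples 2 and 3 (0.89).

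Acbd7 (chromosome 2, 3335835 to 3341000) encodes a small protein with an acyl-CoA-binding domain, and its promoter with the 2 E-boxes is printed above. Its FPKM was 58.5, 99.6 and 88.2 in the Control samples, 57.9, 71.7 and 69.8 in the b-catenin-OE samples, 144, 158 and 156 in the Notch1-KO samples and 79.7, 90.4 and 88.4 in the double samples. Every Notch1-KO sample was above every sample of the other groups, the double group overlapped Control, and it lay above b-catenin-OE without overlap. Acbd7 rose in Notch1-KO against Control by a log2 fold change of 0.93 ± 0.17 (limma adjusted p = 0.0297), higher in 3 of 3 samples. It was lower in the double group than in Notch1-KO by -0.82 ± 0.17 (limma adjusted p = 0.0101), lower in 3 of 3 samples. Its difference between the double group and b-catenin-OE was 0.38 ± 0.17 and did not pass (limma adjusted p = 0.272).

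The Acbd7 call in Notch1-KO ended with only the compared groups fitted (limma adjusted p = 0.151), with no filter (0.0863), and with samples 2 and 3 averaged (0.629). It also ended without Control sample 3, any Notch1-KO sample, b-catenin-OE sample 3 or double samples 2 or 3, where the adjusted p of limma ran from 0.0517 to 0.134. The Acbd7 difference between the double group and Notch1-KO passed with each sample left out in turn, and not with samples 2 and 3 averaged (limma adjusted p = 0.216).

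Counted over the 8 genes, 0 passed in b-catenin-OE against Control, where limma called 2.24% of all rows, and 0 of the 8 had an unadjusted p under 0.05, as 14.0% of rows did. In Notch1-KO against Control 2 rose, Otof and Acbd7, and 0 fell. There limma called 0.857% of all rows, 0.535% as higher. Also 5 of the 8 genes lay above Control without overlap, namely Otof, Cacna1d, Cabp2, Slc26a5 and Acbd7, against 7.43% of all rows. An unadjusted p under 0.05 was found for 4 of the 8, all of these but Slc26a5, and for 8.27% of rows. Against Control, 0 of the 8 passed in the double group, where limma called 12.5% of rows, and 0 had an unadjusted p under 0.05, as 26.3% of rows did. Only Cacna1d lay above Control without overlap, as 15.9% of all rows did. Between the double group and b-catenin-OE 0 passed, where limma called 2.72% of rows. Otof and Acbd7, 2 of the 8, had an unadjusted p under 0.05, as 18.2% of rows did. Acbd7 lay higher without overlap, as 12.6% of rows did, and Pvalb lower, as 16.2% did. From Notch1-KO to the double group 2 fell, Otof and Acbd7, where limma called 10.1% of rows, 5.21% as lower. In that comparison 6 of the 8 lay below Notch1-KO without overlap, all but Kcnma1 and Ocm, against 18.1% of all rows. The unadjusted p was under 0.05 for 5 of the 8, all of those but Cacna1d, and for 22.7% of rows. In b-catenin-OE 2 lay below Control without overlap, Ocm and Cabp2, against 8.63% of all rows.

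**Figure D3:**
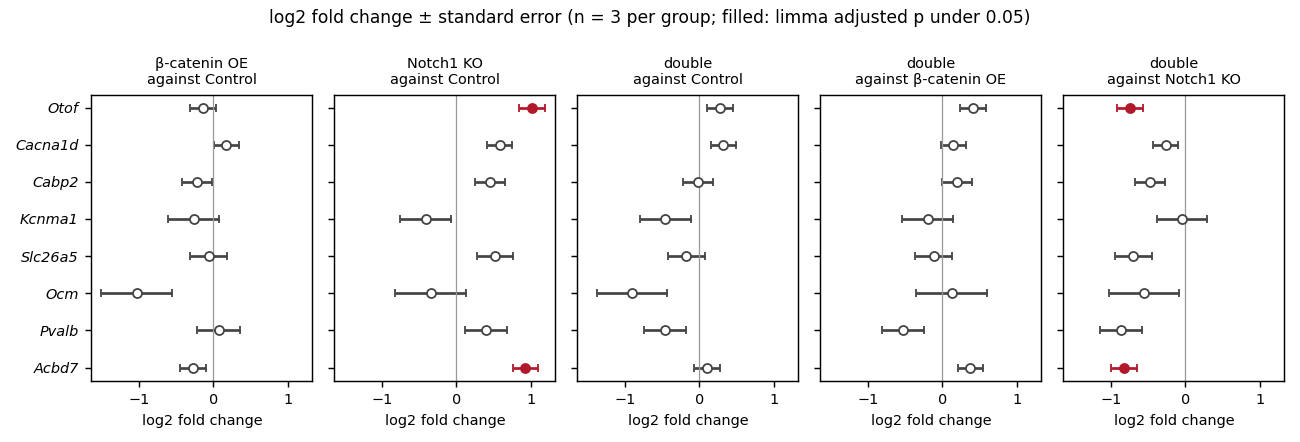
log2 fold change of FPKM + 0.5 (horizontal axis) of the 8 genes in 5 comparisons, with the standard error as bars and filled points where limma's adjusted p was under 0.05. Otof and Acbd7 are filled at 1.02 and 0.93 in Notch1-KO against Control and at -0.74 and -0.82 in the double group against Notch1-KO, and no other point is filled.

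The median log2 fold change of the 8 genes was 0.49 in Notch1-KO against Control, beside -0.01 over all tested rows. It was -0.63 in the double group against Notch1-KO, beside -0.02 over all rows, with 0 of the 8 values positive. In b-catenin-OE it was -0.18 beside -0.01, in the double group against Control -0.10 beside -0.02, and in the double group against b-catenin-OE 0.14 beside 0.00. The comparisons with Control share its samples, and those with the double group share that group's samples. Whether Notch1-KO made a different change with and without b-catenin-OE was tested as an interaction, which 0 of the 8 genes passed and which limma called in 0.0206% of rows. Otof had the smallest p of the 8, at a log2 interaction of -0.61 ± 0.25 (limma adjusted p = 0.522), and Pvalb the largest estimate, at -0.93 ± 0.40 (limma adjusted p = 0.561). Acbd7, at -0.55 ± 0.24, had a limma adjusted p of 0.569. These 3 of the 8 had an unadjusted p under 0.05, as 8.41% of rows did.

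For several of the genes the difference from Control had one sign by sample 1 and the other by samples 2 and 3. In b-catenin-OE against Control, Otof was higher by sample 1 (log2 difference 0.50) and lower by samples 2 and 3 (-0.46). Slc26a5 went the same way, at 0.52 and -0.35, and Pvalb the opposite way, at -0.45 and 0.33. In Notch1-KO against Control, Otof, Acbd7, Cacna1d, Cabp2 and Slc26a5 were higher by both, between 0.39 and 1.29. Kcnma1 differed by -1.66 in sample 1 and 0.21 in samples 2 and 3. Ocm was lower than Control in all 3 groups by both, and by more in sample 1 of Notch1-KO and of the double group.

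**Figure D4:**
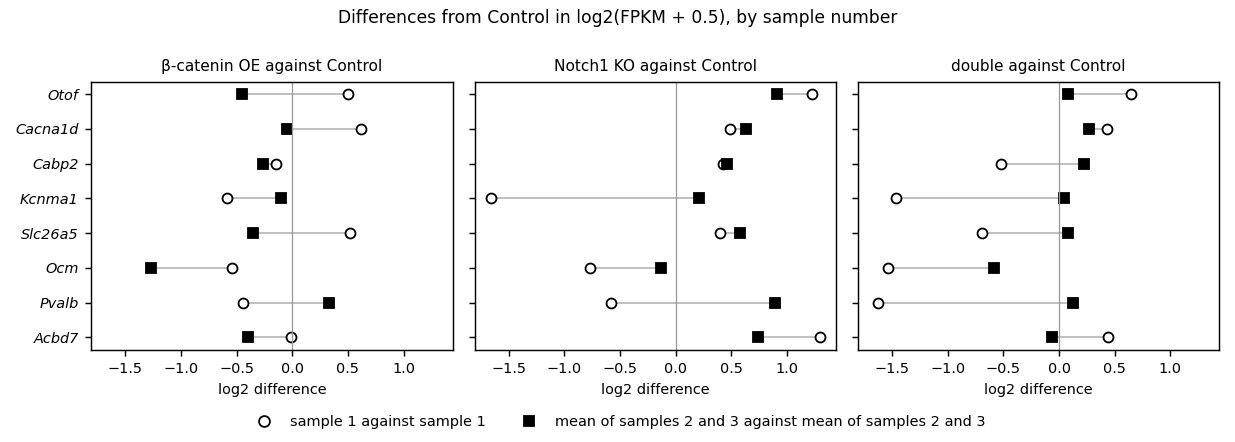
Difference from Control in log2(FPKM + 0.5) (horizontal axis) for each gene and group, from sample 1 against sample 1 (open circles) and from the means of samples 2 and 3 (squares). In Notch1-KO both symbols lie right of 0 for Otof, Cacna1d, Cabp2, Slc26a5 and Acbd7, while Pvalb lies at -0.58 by sample 1 and 0.89 by samples 2 and 3.

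Other genes of the same machinery were counted in 5 lists, though the channel list also holds Ano1, a channel of supporting cells. In Notch1-KO against Control, the ribbon synapse and vesicle release list had 0 of 11 tested genes past the threshold, with a median log2 fold change of 0.14. Of 12 tested channels and channel partners 2 rose, Kcnmb2 and Kcna10, of 13 calcium buffers, sensors and pumps 1 rose, Cib2, and 0 fell in either list. None of 8 outer hair cell and 4 inner hair cell genes passed, with 4 and 2 at an unadjusted p under 0.05. Over all rows limma called 0.857% in this comparison, 0.535% as higher, and 8.27% had an unadjusted p under 0.05. Kcnmb2, a regulatory subunit of the Kcnma1 channel, had 2.76, 5.41 and 3.91 FPKM in the Control samples and 8.76, 9.47 and 8.35 in the Notch1-KO samples, with no overlap. Its log2 fold change was 1.09 ± 0.19 (limma adjusted p = 0.0237), while Kcnma1 itself overlapped between these groups. Kcna10, a voltage-gated potassium channel, had 6.001, 13.0 and 13.1 FPKM in the Control samples and 25.4, 26.9 and 28.4 in the Notch1-KO samples, a log2 fold change of 1.36 ± 0.28 (limma adjusted p = 0.0478). Cib2, a calcium-binding partner of the transduction channel, had 93.9, 113 and 121 FPKM in the Control samples and 177, 195 and 176 in the Notch1-KO samples, a log2 fold change of 0.74 ± 0.13 (limma adjusted p = 0.0233). None of these 3 calls held with samples 2 and 3 averaged, where limma's adjusted p was 0.532 to 0.656, or with only these groups fitted, where it was 0.0979 to 0.147. Kcnmb2 and Kcna10 also lost the call with no filter on low values (0.0633 and 0.144), and each of the 3 lost it without any 1 Notch1-KO sample (0.0719 to 0.176). Kcna10 lost it also with the sample number as a block (0.0562), with a pseudocount of 0.1 (0.0548), without a trended spread (0.0517) and without any other sample but b-catenin-OE sample 1 (0.0594 to 0.0849), Cib2 without Control sample 1 or 2 (0.0571 and 0.0713) and Kcnmb2 without Control sample 3 (0.0817).

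In b-catenin-OE against Control only 1 gene of the 5 lists passed, where limma called 2.24% of all rows. Ano1, a calcium-activated chloride channel of supporting cells, fell from 89.9, 82.3 and 87.2 FPKM in the Control samples to 69.2, 39.5 and 41.6, by a log2 fold change of -0.83 ± 0.19 (limma adjusted p = 0.0436). The Ano1 call was lost with samples 2 and 3 averaged (0.837), with only these groups fitted (0.221), with no filter (0.116), with quantile normalization (0.0670), without a trended spread (0.0544), and without any 1 sample other than sample 1 of b-catenin-OE or of the double group (0.0545 to 0.194). In the double group against Control limma called 12.5% of all rows. There 1 of 11 ribbon synapse genes rose and 1 fell. Of 12 channel genes 1 rose and 2 fell, and of 13 calcium genes 1 fell in that group. Ano1 was at 19.2, 24.3 and 24.7 FPKM there, a log2 fold change of -1.91 ± 0.19 (limma adjusted p = 7.36e-05). Cacna2d2, an auxiliary subunit of calcium channels, had 7.11, 6.10 and 5.92 FPKM in the Control samples and 3.18, 2.94 and 2.95 in the double samples, with no overlap. Its log2 fold change was -0.96 ± 0.21 (limma adjusted p = 0.0105), while Cacna1d was higher than Control without overlap. Rims2, an active zone scaffold, rose from 1.95 ± 0.114 to 3.43 ± 0.547 FPKM (SD, n = 3), a log2 fold change of 0.67 ± 0.17 (limma adjusted p = 0.0263). Kcna10 rose from 10.7 ± 4.08 to 20.3 ± 0.840 FPKM, by 0.97 ± 0.28 on the log2 scale (limma adjusted p = 0.0418). S100a1, a calcium-binding protein, fell from 1168 ± 211 to 584 ± 154 FPKM, a log2 fold change of -1.02 ± 0.26 (limma adjusted p = 0.0252). Apart from Ano1, these calls ended with samples 2 and 3 averaged, at a limma adjusted p of 0.182 for Cacna2d2 and 0.216 to 0.346 for Rims2, Kcna10 and S100a1. The calls of Rims2 and S100a1 also ended without Control sample 2 or 3, Kcna10 without Control sample 1, any Notch1-KO sample or b-catenin-OE sample 3, and each of these 3 without 1 or more of the double samples (limma adjusted p from 0.0537 to 0.116 over all these). With no filter on low values Kcna10 (0.110) and S100a1 (0.0702) lost the call, and Kcna10 also with only these groups fitted (0.0792). From Notch1-KO to the double group, Cacnb2 and Cacna2d2 of the ribbon synapse list, Kcnmb2 and Ano1 of the channel list and Calb1 and Cib2 of the calcium list fell. Tomt of the outer hair cell list fell as well. Over all rows limma called 10.1% in that comparison, 5.21% as lower. Of 4 inner hair cell genes 1 rose there, Dnajc5b, and 1 fell, Rprm. Calb1, Cacnb2, Tomt, Rprm and Dnajc5b are named after their values were seen. Between b-catenin-OE and the double group 1 channel gene rose, Kcna10, and 1 fell, Ano1, and 0 of the other 4 lists passed. In that comparison limma called 2.72% of all rows.

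The hair cell identity genes moved beside these changes. Their summed FPKM was 105, 122 and 120 in the Control samples, 135, 97.7 and 97.9 in the b-catenin-OE samples, 241, 196 and 200 in the Notch1-KO samples and 156, 155 and 155 in the double samples. Of the 10 tested, 2 rose in Notch1-KO, Gfi1 and Rasd2, and all 10 had a positive log2 fold change with a median of 0.86. Over all rows limma called 0.535% as higher in Notch1-KO. From Notch1-KO to the double group 2 fell, Gfi1 and Cdh23, where limma called 5.21% of all rows as lower. Rasd2 also rose in the double group against Control, where limma called 12.5% of rows, and against b-catenin-OE, where it called 2.72%. The part of the identity genes in the levels of Otof, Acbd7 and the other 6 genes was not tested.

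Each of the 8 genes was therefore also divided by the summed identity genes of the same sample, a measure chosen after the values were seen. The summed genes rose unequally in Notch1-KO, with log2 fold changes of 0.49 for Myo6, 1.10 for Pou4f3 and 1.38 for Rasd2. A ratio thus depends on which genes are summed, no other sum was tried, and it is not a level per hair cell. For Otof the ratio was 0.157, 0.160 and 0.174 in the Control samples and 0.164, 0.197 and 0.191 in the Notch1-KO samples, which overlapped (exact permutation test, two-sided p = 0.2). The Acbd7 ratio also overlapped, with means of 0.703 in Control and 0.729 in Notch1-KO (exact permutation test, p = 0.7). For Ocm it was 2.33, 3.71 and 3.19 in the Control samples, 1.25, 1.88 and 1.64 in the b-catenin-OE samples, 0.596, 1.90 and 1.93 in the Notch1-KO samples and 0.537, 1.72 and 1.87 in the double samples. All 9 samples of the 3 other groups lay below all Control samples for Ocm. The Slc26a5 ratio lay below Control without overlap in Notch1-KO, at 0.793 times the Control mean, and in the double group, at 0.669 times. The ratios of Cacna1d, Cabp2 and Kcnma1 were also lower without overlap in Notch1-KO than in Control, at 0.846, 0.762 and 0.354 times. For Kcnma1 the Control ratios were 0.0588, 0.0181 and 0.0194, so much of that Control mean came from sample 1. Its Notch1-KO ratios were 0.00671, 0.0140 and 0.0134. Between the double group and Notch1-KO the Acbd7 ratio was lower without overlap, at 0.761 times, and the Otof ratio overlapped, at 0.806 times. The Cacna1d ratio lay above Control without overlap in b-catenin-OE, at 1.20 times. In the double group the Pvalb and Kcnma1 ratios lay below Control without overlap, at 0.528 and 0.444 times. With 3 samples against 3 the smallest two-sided p an exact permutation test can give is 0.1, and over the 40 tests of this measure the smallest adjusted p was 0.25, so none passed.

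**Figure D5:**
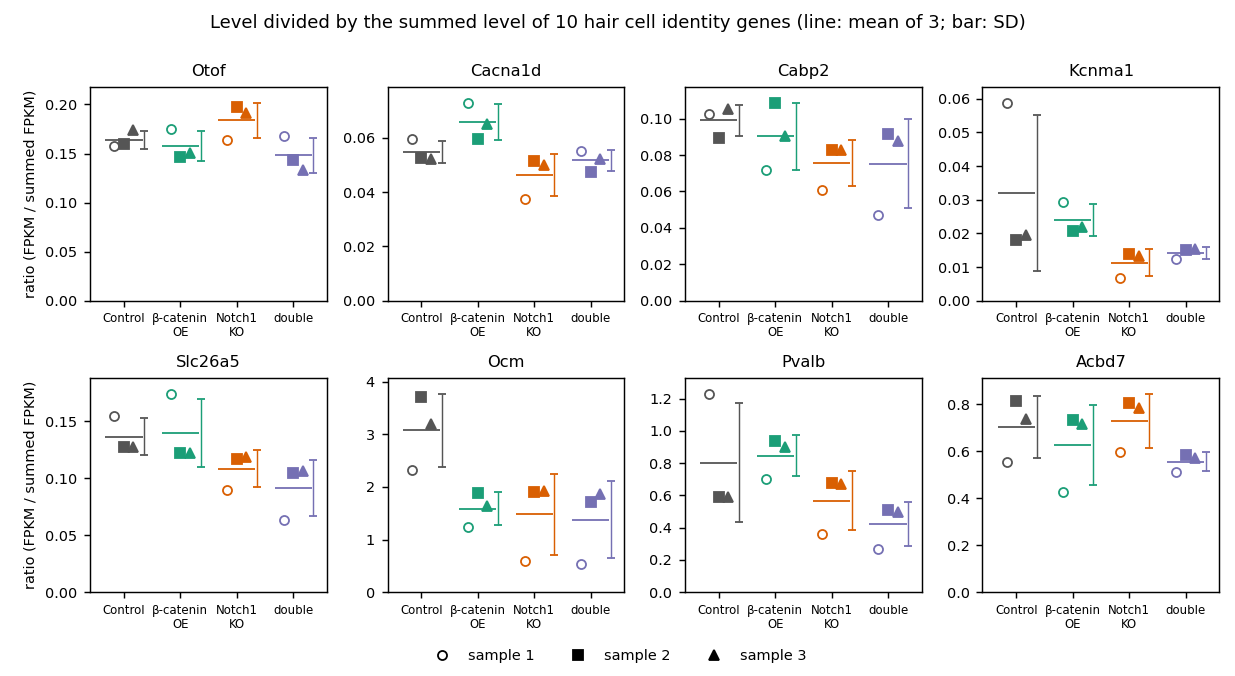
FPKM of each gene divided by the summed FPKM of 10 hair cell identity genes in the same sample (vertical axis, linear, from 0), by group, with symbols as in the plot of levels. Otof and Acbd7 overlap between Control and Notch1-KO, while the Ocm ratio is 2.33 to 3.71 in Control and at most 1.93 in any other sample.

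The authors' deposited table also holds comparisons with Control, and it gave log2 fold changes of 1.03 for Otof and 0.90 for Acbd7 in Notch1-KO, each with p = 5e-05, the lowest the table holds. For Ocm the authors' deposited table gave -1.07 in b-catenin-OE and -0.76 in the double group, both at p = 5e-05, and -0.26 in Notch1-KO at p = 0.121. In Notch1-KO the authors' deposited table had p = 0.00145 for Slc26a5 at 0.53, p = 0.0182 for Cacna1d at 0.62, and p = 0.0596 for Cabp2 at 0.47. For Kcnma1 the authors' deposited table gave -0.61 in Notch1-KO (p = 0.0106) and -0.69 in the double group (p = 0.0032), where the samples numbered 2 and 3 differed from Control by 0.21 and 0.05 on the log2 scale.

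The pattern of each gene over the 12 samples was set beside those of 11666 other genes by the root mean square difference of centred log2 values. Acbd7 was most like Palm3 (0.104) and Gfi1 (0.124), the hair cell transcription factor, and Otof most like Ptprq (0.134), a stereocilia phosphatase, and Mycbpap (0.136). Cacna1d lay closest to Vps13c (0.103) and Rimbp2 (0.131), a synaptic scaffold that binds calcium channels. Cabp2 lay closest to Car7 and Camk2b (both 0.144), Slc26a5 to Ctsf (0.164) and Cep85l (0.167), and Pvalb to Krt222 (0.171) and Abca8a (0.173). Kcnma1 lay closest to C1qtnf1 (0.144) and Abcb1a (0.164). Ocm had the largest distances, with Camp at 0.297 and Cdh10 at 0.321. It also had the largest SD over the 12 samples, 0.726 against 0.283 to 0.506 for the other genes. The measure grows with a gene's own spread, so distances of different genes do not compare directly. Among the 8 genes themselves the closest pair was Cabp2 and Slc26a5 (0.269), followed by Otof and Acbd7 (0.286). These values describe 12 samples that share libraries and depth and carry no test.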

How the data were processed

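RNA of 12 samples (4 groups of 3, grouped and numbered by title) was measured by RNA sequencing. The authors deposited 1 table of FPKM values per gene with their own log2 fold changes and p-values. Cufflinks 2.2.1, Cuffdiff, Bowtie2 2.2.1, TopHat2 2.0.10, Trimmomatic 0.23 and CASAVA 1.8 are named with no roles, per the submitters' processing notes, as is the build mm10. Not given in the sources used here are the annotation, strand use and any scaling of the libraries. The authors' log2 fold changes hold infinite or unreadable cells for other genes, and log2 values and p-values from the deposited table are only quoted. Where a symbol had several rows, that with the highest mean was kept. Loci were shifted by 1 base to start from 1.

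limma 3.58.1 (R 4.3.3) was fitted to log2(FPKM + 0.5) of 14581 rows with at least 0.5 FPKM in at least 3 samples. The model held 4 group means over 12 samples with a trended empirical Bayes spread, two-sided tests and Benjamini-Hochberg adjustment. The pseudocount understates the change of low genes. FPKM values are not counts, so no count test was the main result. The code was tested on simulated data. Other pseudocounts, filters, scalings, spread models and subsets of samples were tried. Ratios to identity genes were tested by exact permutation.

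Depth was fitted to low FPKM values of 2742 genes with 1 transcript (GENCODE M21), which lay within 0.1 of whole fragments for 77.6% to 82.4% of values in samples 2 and 3 and 29.2% to 40.0% in samples 1. It holds only if FPKM was not scaled further. Squared differences between samples 2 and 3 of a group were 1.68 to 25.2 times those of counting noise, so both were kept as separate samples.

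Deviations of same-numbered samples correlated at 0.19 to 0.47 for each number in 4 comparisons. In the double group against b-catenin-OE number 2 gave 0.06. These values cannot decide whether the numbers pair the samples. Sample 1 of each group lay far from the others, so a shift of sample 1 shared between groups could also correlate the other numbers. Samples of different numbers were not correlated for comparison, and the labels give only the numbers. A block for the number changed no count of the 8 genes.

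The genes, lists and tests were chosen with earlier results of these data known. Named genes were the 9 listed, Notch1, Ctnnb1, up to 4 genes per machinery list with the smallest p among those past the threshold against Control, and the 2 genes most alike in pattern. A gene that this rule names is not reported here. Of the marker genes, Sptbn5, Tbx2, Myo15, Lhx3, Cd68, Aif1, Hba-a1, Hba-a2 and Hbb-bs have no row of their own. The other marker lists are given by their sums where they move with a gene. Skeletal muscle markers summed to 2.93 to 9.37 FPKM, with 9 of 13 means under 0.5. Sums were 471 to 932 FPKM for supporting cells, 885 to 2520 for bone and cartilage, 47.5 to 287 for immune cells and 3.64 to 61.9 for red cells. Python 3.11.15 drew figures and read promoters.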

Additional observations from a re-analysis of the deposited data

How the results depend on the processing

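The number of the 8 genes past the threshold depended most on the samples numbered 1. With samples 2 and 3 alone it was 5 in b-catenin-OE against Control (0 in the model of all samples), 6 in Notch1-KO (2), 3 in the double group against Control (0), 7 in the double group against b-catenin-OE (0), 6 in the double group against Notch1-KO (2) and 4 in the interaction (0). Since samples 2 and 3 are so alike, these p-values may be too small. With samples 2 and 3 averaged it was 0 in Notch1-KO against Control and 0 in the double group against Notch1-KO. With no filter on low values it was 0 and 1 in those comparisons, and with only the compared groups fitted 0 in Notch1-KO against Control. Leaving out each sample in turn gave 0 to 1 in b-catenin-OE, 0 to 3 in Notch1-KO and 0 to 1 in the double group against Control, 0 to 1 in the double group against b-catenin-OE and 1 to 3 against Notch1-KO. Without Control sample 1, Acbd7 was gained in b-catenin-OE and Pvalb in the double group against Notch1-KO. Without b-catenin-OE sample 1, Cacna1d was gained against Control in both the Notch1-KO and the double samples, Otof in the double group against b-catenin-OE and Slc26a5 in the double group against Notch1-KO. The double group against Notch1-KO lost Otof without any 1 Notch1-KO sample or double samples 2 or 3 (limma adjusted p 0.0518 to 0.0834), with no filter (0.0510) and with the average (0.322). The cause was not tested. With a replicate block for the sample number the counts were 0, 2, 0, 0, 2 and, for the interaction, 0, as without it. The block ended the call of Kcna10 in Notch1-KO (0.0562) and made that of Notch1 (0.0156). Pseudocounts of 0.1 and 1, the filter at 1 FPKM, median centring, quantile normalization and the fit without a trend kept these counts. No fold change printed for a gene turned its sign under any alternative that was fitted, but those of Myo6, Pou4f3 and Rasd2 were not refitted. Depth limits low genes such as Kcnma1 most.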
